A study of Ranunculus trichophyllus with 6 samples.

Results

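The comparison described here sets leaves harvested at 14 days against leaves harvested at 11 days together with the shoot apical meristem, in *Ranunculus trichophyllus*, a wild buttercup that lives in water and on the ground beside it. All 6 libraries of the series entered it. The labels give 2 of them as leaf at 14 days, which are replicate 1 of the terrestrial plants and replicate 1 of the aquatic plants, and 4 as leaf and shoot apical meristem at 11 days, which are replicates 2 and 3 of both conditions. Both conditions shared the plant material, the growth at 22°C and the cycle of 16 h light and 8 h dark. They differed in that aquatic plants were seedlings of 1 week soaked in water, while terrestrial plants stayed in air, and RNA was taken from seedlings without cotyledons and hypocotyls. The methods of the study describe a single harvest in place of the pair given by the labels, and the labels were followed. Age, sampled tissue and replicate number change together between the harvests, so their parts in any difference cannot be told apart. Each condition has 1 library at 14 days, no source says whether libraries came from separate cultures, and the p-values measure only the spread between these samples.

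The shoot apical meristem is the small dome of dividing cells at the tip of a shoot. In *Arabidopsis*, class I KNOX transcription factors keep its cells undifferentiated, and leaf primordia arise on its flanks where these factors are switched off. Cells of a young primordium divide, with bursts of histone, replication and ribosome gene expression, and later stop dividing, expand and build their photosynthetic machinery. Older leaves in turn begin to dismantle chlorophyll and to export nitrogen and sugars. A sample that holds the apex can therefore differ from a sample of leaf alone in its dividing cells, and the samples here also differ in age. In bulk tissue, fewer cells of a type and less RNA per cell cannot be told apart.

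The libraries held between 25345718 and 33978729 expected counts, the estimated number of fragments of each transcript of the authors' de novo assembly. Of 210686 transcripts, 17559 had an *Arabidopsis* protein as their best match, with a median identity of 58%, and their counts were summed over the 8613 genes matched, here called homologs. Paralogs of the buttercup with the same match were merged, so a value can cover more than 1 gene, and gene functions given here are those known in *Arabidopsis*. Aquatic replicate 1 stood apart, as 3 transcripts without annotation took 36.2% of its counts, against 0.287 to 0.987% in the other libraries, and homologs took 33.4%, against 54.2 to 56.3%. Aquatic replicate 2 had counts in 1641 of 1730 transcripts with a fungal match, against 54 to 161 in the others. Values are given as CPM, here counts scaled to the homolog total of each library and by the trimmed mean of M values (TMM). Within each condition the 14-day value is given first and the 11-day values of replicates 2 and 3 follow.

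The labels of the harvests were first compared with the defining markers of the apex. SHOOT MERISTEMLESS (STM), the KNOX factor that maintains the meristem, had 0 CPM at 14 days and 9.66 and 11.0 CPM at 11 days in terrestrial plants, and 0 CPM at 14 days and 9.34 and 18.1 CPM at 11 days in aquatic plants. BREVIPEDICELLUS (BP/KNAT1), a KNOX factor of the meristem and stem, had 0, 15.9 and 11.3 CPM in terrestrial plants and 0, 22.9 and 28.9 CPM in aquatic plants. Both were thus without a single count at 14 days and present in every library at 11 days. Against a floor of 3 counts over the 14-day libraries, STM was at least 110-fold lower and BP/KNAT1 at least 180-fold lower at 14 days (adjusted p = 0.0059 and 0.00358 from edgeR's quasi-likelihood test). KNAT2, a further meristem factor, had 2 counts at 14 days and 569 at 11 days, a ratio of 127 after scaling (95% counting interval 34.95 to 1050, counting error only). CLV1 and CLV2, receptors that restrict the size of the meristem, did not pass the test, with log2 fold changes of -0.36 (standard error 0.13, adjusted p = 0.0922) and -0.31 (standard error 0.19, adjusted p = 0.26). Of 21 apex identity genes listed, these 5 were tested. LAS, which acts in side shoot formation, and the flower identity gene LFY, counted too rarely to be tested, had no count at 14 days.

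Harvest was tested in edgeR with growth condition as a covariate, on the 8266 homologs that passed a minimum count of 10, and p-values were adjusted over all of them by the Benjamini-Hochberg method. At an adjusted p under 0.05, 1266 homologs (15.3%) were higher and 1522 (18.4%) lower at 14 days, 33.7% in all. In both conditions 1261 higher (15.3% of those tested) and 1515 lower (18.3%) homologs moved the same way, and 12 of the called homologs did not. Moving the same way means that the 14-day library lay beyond both 11-day libraries on that side. Disagreement between conditions adds to the residual spread of this fit. The call itself therefore favours homologs that agree, and their number is no separate evidence of a shared shift. Without a test, the 14-day library lay above both 11-day libraries in both conditions for 2525 homologs (30.5%) and below them for 2757 (33.4%). Decreases were larger than increases. A change of 4-fold or more was found for 98 of the higher and 522 of the lower homologs, and a log2 change of at least 4 in size for 5 and 240. In 41 of the lower homologs both 14-day libraries had no count at all, while none of the higher homologs was at 0 in all 11-day libraries. These numbers are not alike, since the first asks for 0 in 2 libraries and the second in 4. The lower homologs without a 14-day count also passed the count filter through the 11-day libraries alone. Called homologs that moved the same way had a median log2 ratio of 0.87 in terrestrial and 0.85 in aquatic plants when higher, and of -1.12 and -1.26 when lower.

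**Figure D1:**
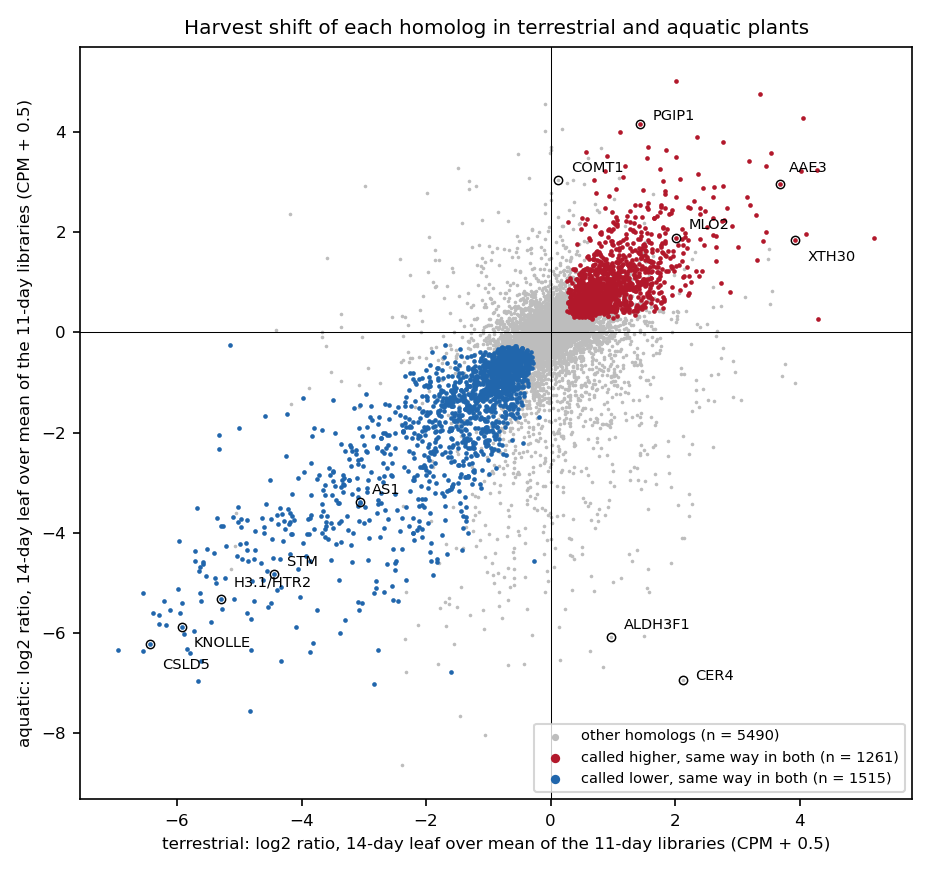
Log2 ratio of the 14-day library over the mean of the 11-day pair in terrestrial plants (horizontal axis) against the same ratio in aquatic plants (vertical axis), 1 point per homolog, computed from CPM with 0.5 added. Points called higher or lower and moved the same way lie in the upper right and lower left. The wax homolog CER4 and the aldehyde dehydrogenase ALDH3F1, both labelled, lie below, with low ratios in aquatic plants.

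The split between higher and lower homologs depended on the scaling. With TMM, 45.4% of the called homologs were higher. Upper-quartile scaling gave 975 higher and 1733 lower (36% higher) and moved the median log2 change of all homologs from -0.02 to -0.12. Scaling over all assembled transcripts gave 815 and 1919 (29.8% higher) with a median of -0.18. Changes below are relative to TMM, and small increases in particular rest on it. The median change of none of the 27 gene lists described changed sign under these scalings. Across homologs, which are not independent replicates, the terrestrial and aquatic ratios had a Pearson correlation of 0.649 and the same sign for 75.5%. Leaving out aquatic replicate 1 gave 1133 higher and 1178 lower homologs, and 1804 of the 2788 calls (64.7%) were also made without it. Without terrestrial replicate 3, the library with the largest effect on these counts, they were 473 and 620. In every one of the 6 fits that left out 1 library, 357 of the higher and 583 of the lower homologs were called. Genes named below as having risen or fallen are among these unless their loss in a fit without a library is stated beside them. Counts of called list members are to be read beside the 15.3% higher and 18.4% lower over all homologs.

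**Figure D2:**
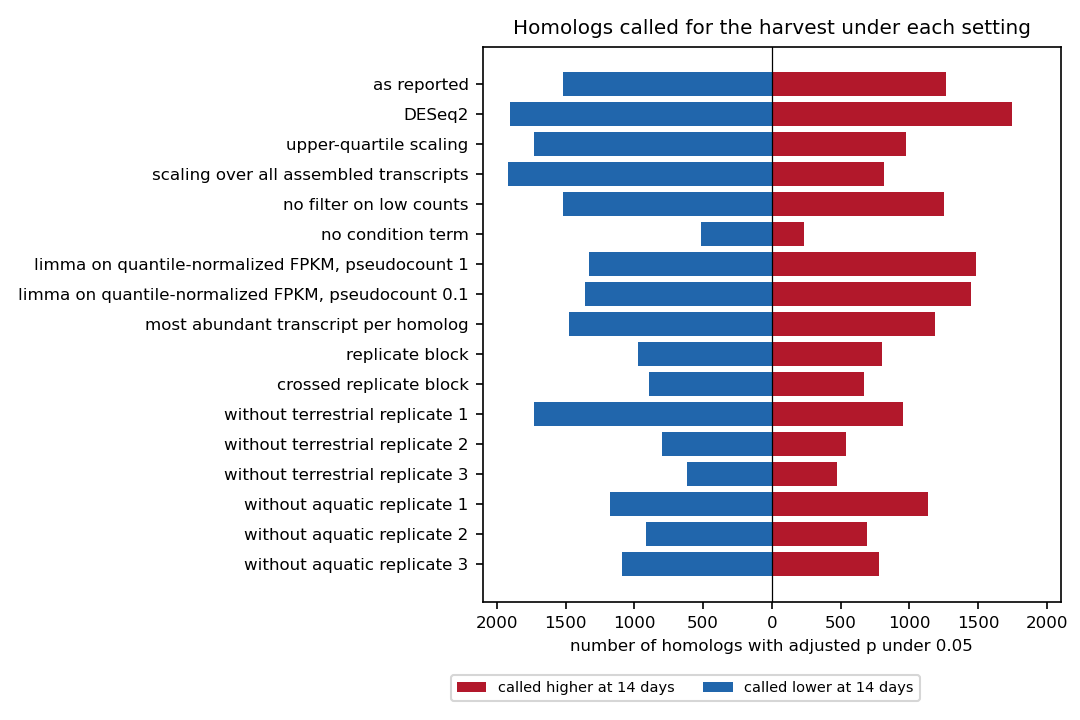
Number of homologs called higher and lower at 14 days (adjusted p under 0.05) under the fit described and each alternative processing or left-out library. Counts with TMM scaling and all libraries are 1266 higher and 1522 lower, and those without terrestrial replicate 3 are 473 and 620.

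Of 10 primordium and polarity genes tested, 5 were lower at 14 days, 3 of them in every left-out fit, and 1 was higher, with a median log2 change of -1.99 against -0.02 over all homologs. AINTEGUMENTA (ANT), a transcription factor that keeps primordium cells competent to divide, had 0.187, 37.6 and 34.4 CPM in terrestrial plants and 0, 33.5 and 27.3 CPM in aquatic plants. Its 3 counts at 14 days against 2019 at 11 days make a ratio of 300.0 (95% counting interval 103 to 1456). AS1, named for its asymmetric leaves, the MYB factor that represses KNOX genes in primordia, had 11.9, 105 and 102 CPM in terrestrial plants and 4.22, 45.8 and 52.4 CPM in aquatic plants. For both genes the harvests did not overlap in either condition, and the log2 change of AS1 was -3.31 (standard error 0.17, adjusted p = 0.00217). PRESSED FLOWER (PRS/WOX3), which promotes outgrowth of the leaf margin, had 0 counts at 14 days and 84 at 11 days, at least 12.5-fold lower (adjusted p = 0.00791). The other lower members were ATHB15, an adaxial HD-ZIP factor (-1.60, standard error 0.33, adjusted p = 0.023), and GRF1, a growth-regulating factor (-2.38, standard error 0.67, adjusted p = 0.0479). ATHB15 no longer passed without terrestrial replicate 2, terrestrial replicate 3 or aquatic replicate 2 (adjusted p = 0.0569, 0.062 and 0.0591), nor GRF1 without terrestrial replicates 2 or 3 or aquatic replicates 2 or 3 (adjusted p = 0.066 to 0.115). The higher member was ROT3, a cytochrome P450 of brassinosteroid metabolism that promotes leaf elongation, with a log2 change of 0.97 (standard error 0.17, adjusted p = 0.0165), which did not pass without terrestrial replicate 1 (adjusted p = 0.0594).

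REV, a partner of ATHB15 in adaxial identity, and the abaxial factors ARF3 and ARF4 did not pass, with log2 changes of -0.44, -2.38 and -1.30 (adjusted p = 0.138, 0.101 and 0.277). None of the 3 maturation factors tested passed either. PPD2 and BB, which limit the division of leaf cells, and ARF2, a repressor of growth, had changes between -0.51 and 0.26. Neither of the 2 phase change genes tested, SPL9 and SPL2, passed. Among 13 genes of cytokinin and auxin in growth 2 (15.4%) were higher and 3 (23.1%) lower, near the 15.3% and 18.4% over all homologs. The higher members ARR2 and CKX5 and the lower member LOG8 were each called in only 1 of the 6 left-out fits. LAX2, an auxin influx carrier of leaf vein patterning, fell by 5.18 (standard error 0.60, adjusted p = 0.00697), from between 5.63 and 16.2 CPM in the 11-day libraries to 0.622 and 0 CPM at 14 days. YUC4, an enzyme of auxin synthesis active in young organs, fell by 4.61 (standard error 0.56, adjusted p = 0.00721). PIN3, an auxin efflux carrier, did not pass for a common shift, and had 279, 95.03 and 109 CPM in terrestrial plants and 29.6, 81.4 and 129.7 CPM in aquatic plants.

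Cell division genes were lower at 14 days in both conditions. Of 17 genes of mitosis and cytokinesis tested, 15 were lower and 1 higher, with a median log2 change of -4.14. CDKB2;1, a cyclin-dependent kinase made around mitosis, had 1.06, 80.5 and 116 CPM in terrestrial plants and 0.809, 48.1 and 42.0 CPM in aquatic plants. CSLD5, a cellulose synthase-like enzyme of the cell plate, had 1.12, 127 and 154 CPM in terrestrial plants and 0.359, 71.4 and 54.8 CPM in aquatic plants. Every 11-day library was far above both 14-day libraries for these genes, with log2 changes of -6.22 for CDKB2;1 (standard error 0.33) and -7.10 for CSLD5 (standard error 0.27), each with an adjusted p of 0.00217. The B-type cyclin CYCB2;4, the spindle kinase AUR1 and the syntaxin of the cell plate KNOLLE fell as well, with log2 changes of -6.65, -4.50 and -6.40. All but 1 of the 15 lower members were called in every fit without 1 library. AUR3, a second Aurora kinase, was the exception, with a log2 change of -1.73 (adjusted p = 0.0253, and 0.0536 to 0.0692 in the 4 fits where it did not pass, which left out terrestrial replicate 1, 2 or 3 or aquatic replicate 2). The higher member was KEULE, a regulator of vesicle fusion with roles beyond the cell plate, with a log2 change of 0.61 (adjusted p = 0.0248), which did not pass in 4 of the 6 fits, those without terrestrial replicate 1, 2 or 3 or aquatic replicate 3 (adjusted p = 0.0577 to 0.0775).

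Of 30 genes of DNA replication and S phase tested, 21 were lower and none higher, with a median log2 change of -3.63. MCM7, a subunit of the replicative helicase known as PROLIFERA (MCM7/PRL), had 1.06, 125 and 116 CPM in terrestrial plants and 1.26, 120.2 and 77.6 CPM in aquatic plants, and fell by 6.57 (standard error 0.33, adjusted p = 0.00217). Its partners MCM3, MCM5 and MCM6 fell too (-6.38, -6.25 and -6.05), so that the helicase subunits moved by nearly the same amount. The D-type cyclin CYCD3;2, which responds to cytokinin and opens the way into S phase, had 0.684, 40.1 and 39.8 CPM in terrestrial plants and 0.0898, 8.17 and 5.99 CPM in aquatic plants. It fell by 5.91 (standard error 0.29, adjusted p = 0.00217), and its 11-day levels in aquatic plants lay below those in terrestrial plants. Among the 9 members that did not pass were the origin subunit ORC2, the clamp loader RFC1 and the flap endonuclease FEN1, with log2 changes of -0.37, -0.23 and -0.46. The 2 ribonucleotide reductase subunits TSO2 and RNR1, which make the building blocks of DNA, fell, with changes of -4.39 (adjusted p = 0.00561) and -2.78 (adjusted p = 0.00602). Of the 21 lower members, 19 were called in every fit without 1 library. ORC6 was lost in 5 of these fits, all but that without terrestrial replicate 1 (adjusted p = 0.0558 to 0.122), and DEL1, a repressor of endoreduplication, without terrestrial replicate 3 (adjusted p = 0.0527).

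Of 15 chromatin genes tested, 11 were lower and none higher, with a median log2 change of -1.57. The replication-dependent histone H3.1 (H3.1/HTR2) had 31.6, 1171 and 1341 CPM in terrestrial plants and 19.7, 883 and 723 CPM in aquatic plants. Its 14-day values were a small part of any 11-day value, and it fell by 5.33 (standard error 0.20, adjusted p = 0.00217). CMT3 and DDM1, which maintain DNA methylation as new DNA is made, fell, with changes of -3.92 and -5.44, as did the H3K9 methyltransferase KYP (-2.87). DRM2, a de novo DNA methyltransferase, VIM1, SMC3 and HDA19 did not pass, with log2 changes between -0.32 and 0.45. HTA10 and HTA2, H2A histones, were lower by -1.40 and -1.57 on the log2 scale (adjusted p = 0.022 and 0.0199) but did not pass in the fits without terrestrial replicate 2, terrestrial replicate 3 or aquatic replicate 2 (adjusted p = 0.0533 to 0.0631). FAS2, a subunit of chromatin assembly factor 1, was lost without terrestrial replicate 3 (adjusted p = 0.0536) and ATXR5, a histone methyltransferase, in the 4 fits without terrestrial replicate 1 or 3 or aquatic replicate 1 or 2 (adjusted p = 0.0517 to 0.0596).

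The decrease of cytosolic ribosomal proteins was smaller and very even. All 13 tested were lower, with log2 changes from -2.49 to -1.13 and a median of -1.43. RPL7B, a protein of the large subunit, had 699, 1928 and 2084 CPM in terrestrial plants and 562, 1487 and 1354 CPM in aquatic plants. It fell by 1.43 (standard error 0.14, adjusted p = 0.00561). Summed over the list, the 14-day libraries had 3750 CPM in terrestrial and 3227 CPM in aquatic plants, and the 11-day libraries 7352 to 11089 CPM. RPL19A alone was lost in a left-out fit, without terrestrial replicate 2 (adjusted p = 0.0529) or terrestrial replicate 3 (adjusted p = 0.052). Among 8 housekeeping genes, ACT7, an actin of growing tissue, fell by 1.07 (standard error 0.14, adjusted p = 0.0089). EF1A, the elongation factor of translation, was lower by -1.10 on the log2 scale (adjusted p = 0.0273), which was lost without terrestrial replicate 2 or 3 or aquatic replicate 2 or 3 (adjusted p = 0.0566 to 0.0895). TIP41L, UBC10 and UBC21/PEX4 had log2 changes of 0.00, 0.05 and -0.10 and did not pass.

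**Figure D3:**
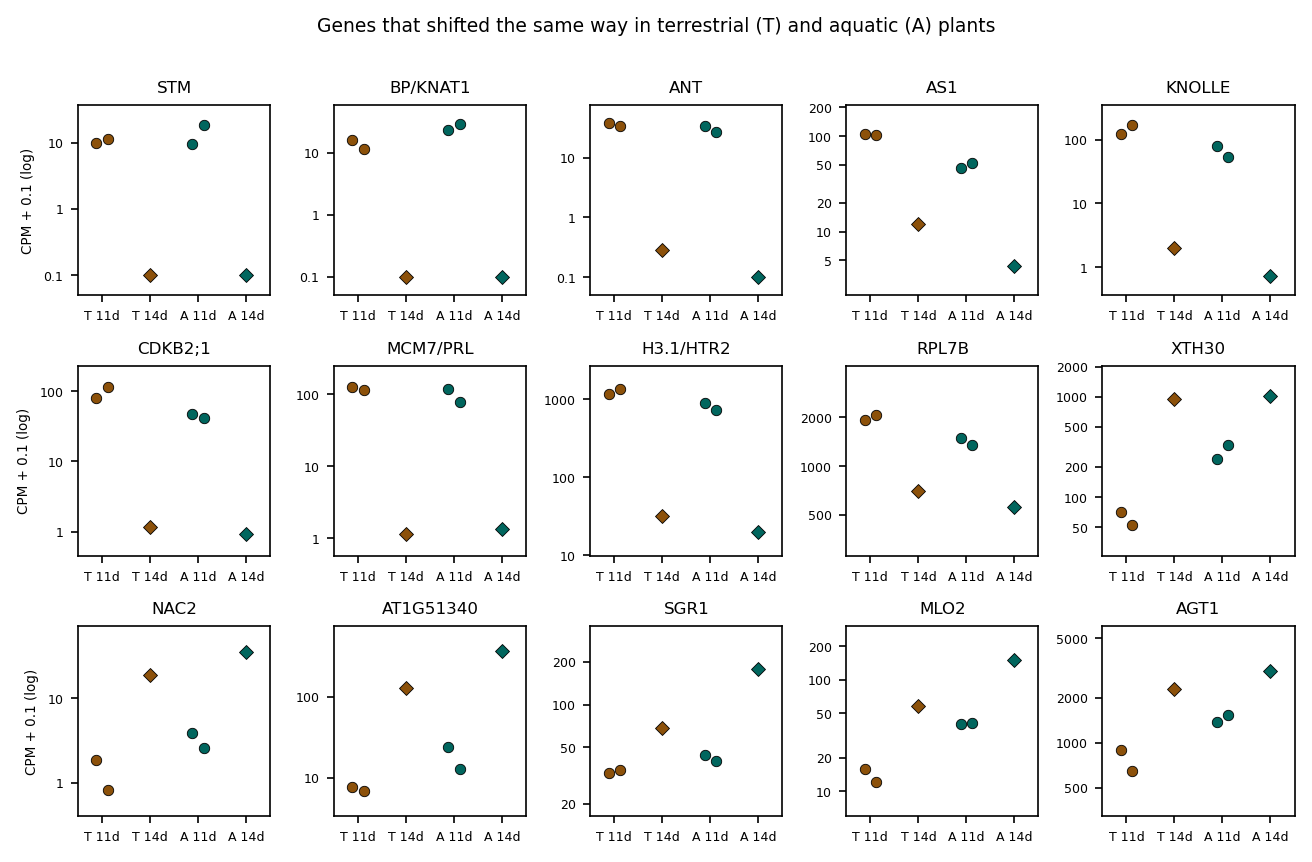
CPM (log scale, 0.1 added) of 15 homologs in each library, with terrestrial and aquatic libraries marked apart and the 14-day library of each condition set beside its 11-day pair. The apex, division, replication, histone and ribosomal homologs lie lower at 14 days in both conditions, and XTH30, NAC2, AT1G51340, SGR1, MLO2 and AGT1 higher.

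**Figure D4:**
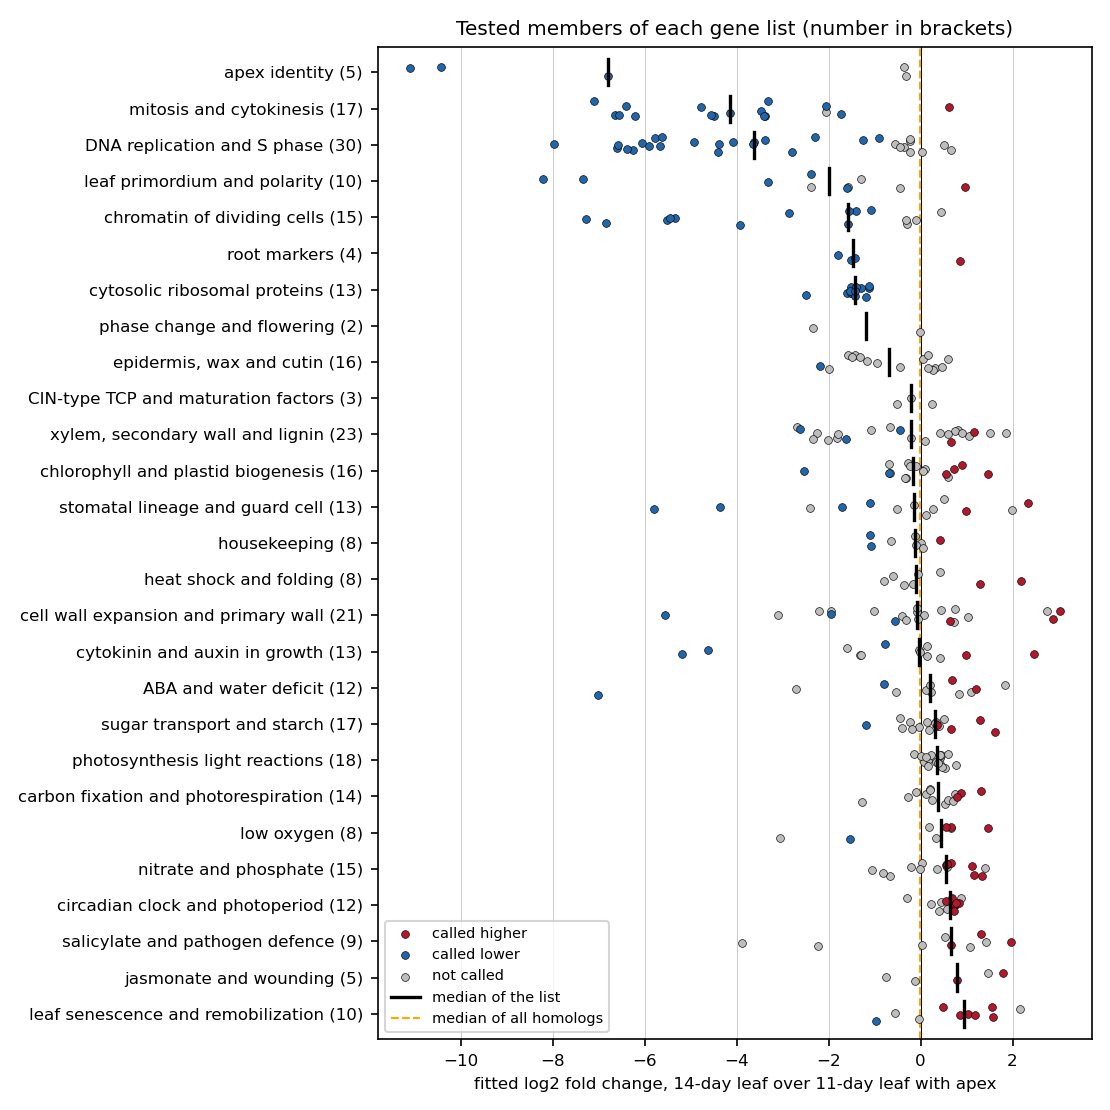
Log2 change at 14 days against 11 days of each tested member of the 27 gene lists, with the list medians marked and fitted values shown for genes without counts at 14 days. The division, replication and chromatin lists lie mostly below 0 and the ribosomal list wholly below it. The senescence, clock and nutrient lists lie mostly above 0, over a narrower range than the division, replication and chromatin lists.

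The decreases of the largest size also included genes outside these lists. DOT5, a zinc finger factor of leaf venation, had 0, 9.32 and 9.44 CPM in terrestrial plants and 0, 9.68 and 7.16 CPM in aquatic plants, at least 80.4-fold lower at 14 days. TEL1, an RNA-binding protein of the meristem related to maize TERMINAL EAR1, was at least 43.7-fold lower. Both were absent from the 14-day counts and alike in the 11-day libraries of the 2 conditions. HSFB4, a heat shock factor family member with a role in stem cell divisions of the root, had 1 count at 14 days and a ratio of 349.5 (95% counting interval 62.5 to 13823). AT4G33355, annotated with lipid transport, had 1 count against 2169, a ratio of 967 (95% counting interval 173 to 38211). AT1G03940, an acyltransferase, and AT1G72110, annotated with diacylglycerol acyltransferase activity, were at least 66.9-fold and 51.9-fold lower. CYP77B1, a cytochrome P450, fell by 8.52 (standard error 0.61, adjusted p = 0.0034), from 0.373, 79.0 and 135 CPM in terrestrial plants and 0, 44.9 and 34.9 CPM in aquatic plants. The 15 decreases chosen for their size were called in every fit without 1 library.

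Increases were fewer among large changes. AT3G56930, annotated with palmitoyltransferase activity, had 12.4, 0.340 and 0.257 CPM in terrestrial plants and 7.82, 0.549 and 0.247 CPM in aquatic plants. AT1G51340, annotated as an antiporter, had 129, 7.75 and 6.74 CPM in terrestrial plants and 366, 23.9 and 12.8 CPM in aquatic plants. In both, each 14-day value stood far above every 11-day value, and they rose by 4.82 (standard error 0.39, adjusted p = 0.00381) and 4.23 (standard error 0.26, adjusted p = 0.00264). Transport was the annotation of 2 more of the increases. AT1G16310, annotated with cation transport, rose by 4.34 (standard error 0.36, adjusted p = 0.0039), and AT5G16740, an amino acid transporter, by 4.21 (standard error 0.39, adjusted p = 0.00489). NAC2, a NAC transcription factor, had 18.6, 1.77 and 0.706 CPM in terrestrial plants and 35.3, 3.71 and 2.47 CPM in aquatic plants, and rose by 3.70 (standard error 0.37, adjusted p = 0.00553). CML41, a calmodulin-like protein, rose by 3.40 (adjusted p = 0.00659) and AT4G16563, annotated with aspartic endopeptidase activity, by 3.32 (adjusted p = 0.00832). The other 8 of the 15 increases chosen for their size, SSL4, ESE3, AT3G57380, AT2G27080, AAE3, AT5G42050, AT3G24420 and PGIP1, had log2 changes of 3.15 to 3.92 (adjusted p = 0.017 to 0.0345) and were lost in 3 or 4 of the fits without 1 library. Without terrestrial replicate 2 none of the 8 passed (adjusted p = 0.0531 to 0.102), and without terrestrial replicate 3 AT3G24420 alone did (0.0503 to 0.104 for the others). AAE3 and AT3G24420 were lost without terrestrial replicate 1 (adjusted p = 0.077 and 0.107), ESE3, AT2G27080, AT5G42050 and PGIP1 without aquatic replicate 1 (0.0515 to 0.104), SSL4, ESE3, AT3G24420 and PGIP1 without aquatic replicate 2 (0.0633 to 0.0965), and SSL4, AT3G57380 and AT3G24420 without aquatic replicate 3 (0.0679 to 0.072).

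Of 10 genes of leaf senescence tested, 6 were higher at 14 days and 1 lower, with a median log2 change of 0.94, and 2 of the higher calls held in every left-out fit. SGR1, the STAY-GREEN protein that starts the dismantling of chlorophyll, had 67.8, 32.8 and 34.4 CPM in terrestrial plants and 178, 44.2 and 40.1 CPM in aquatic plants. It rose by 1.58 (standard error 0.25, adjusted p = 0.0126), and the 14-day value was above the 11-day pair in each condition. PAO, which opens the chlorophyll ring, had 140.2, 70.4 and 74.8 CPM in terrestrial plants and 242, 59.4 and 55.1 CPM in aquatic plants, a log2 change of 1.55 (standard error 0.26, adjusted p = 0.015). That call was lost without aquatic replicate 2 (adjusted p = 0.053). The other chlorophyll breakdown enzymes PPH and RCCR had log2 changes of 1.19 and 0.85 (adjusted p = 0.0259 and 0.0411). PPH was lost without terrestrial replicate 3 or any aquatic replicate (adjusted p = 0.0667 to 0.0822) and RCCR in all left-out fits but that without terrestrial replicate 1 (0.0806 to 0.14). PED1/KAT2, a thiolase of peroxisomal beta-oxidation, rose by 1.03 (standard error 0.17, adjusted p = 0.0131), from 978, 530.2 and 528 CPM in terrestrial plants and 2093, 798 and 1052 CPM in aquatic plants. ATG18A, an autophagy protein, was at 0.48 (adjusted p = 0.0195) and was lost in all left-out fits but that without aquatic replicate 1 (0.0513 to 0.0677). The lower member was GLN1;1, a cytosolic glutamine synthetase, at -0.97 (adjusted p = 0.0179), which was lost without terrestrial replicate 1, 2 or 3 (adjusted p = 0.0544 to 0.066). DIN6/ASN1, a sugar-starvation gene of asparagine synthesis, did not pass, at -0.03 (standard error 0.64).

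Of 5 jasmonate genes tested, 2 were higher and none lower. COI1, the jasmonate receptor, had 103, 64.4 and 64.7 CPM in terrestrial plants and 264, 149.8 and 130.2 CPM in aquatic plants, and rose by 0.80 (standard error 0.12, adjusted p = 0.0115). JAZ1, a repressor that jasmonate itself induces, had 254, 96.2 and 92.8 CPM in terrestrial plants and 362, 105 and 59.7 CPM in aquatic plants, and rose by 1.80 (standard error 0.28, adjusted p = 0.0121). For both genes the 14-day value was above the 11-day pair of its condition. Of 9 genes of salicylate and pathogen defence, 3 (33.3%) were higher, against 15.3% over all homologs, and none lower. MLO2, a membrane protein of mildew susceptibility, had 57.5, 15.8 and 11.9 CPM in terrestrial plants and 151, 39.9 and 40.9 CPM in aquatic plants, and rose by 1.98 (standard error 0.14, adjusted p = 0.0034). CERK1, the chitin receptor, was at 0.67 (adjusted p = 0.0204) and TGA1, a transcription factor of salicylate signalling, at 1.31 (adjusted p = 0.0304), and both were called in only 1 of the left-out fits, that without terrestrial replicate 1 (adjusted p = 0.0506 to 0.101 in the others). PR1, a marker of the salicylate response, did not pass and had 78.0 CPM in aquatic replicate 2, the library with the fungal transcripts, against 0 to 3.05 CPM in the others. The part of those transcripts in the defence values was not tested.

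For the light reactions of photosynthesis, none of 18 genes tested passed, neither for a common shift nor for a difference of the shifts between conditions, with log2 changes from -0.15 to 0.77. Their summed level was 144190 CPM at 14 days and 93148 and 75579 CPM at 11 days in terrestrial plants, while in aquatic plants it was 87638 CPM at 14 days and 90863 and 100510 CPM at 11 days. The terrestrial 14-day library was thus above its 11-day pair and the aquatic one just below, and the median log2 ratio of the list was 0.75 in terrestrial and -0.12 in aquatic plants. Without aquatic replicate 1, 7 of the 18 genes were called higher. In carbon fixation and photorespiration 3 of 14 genes (21.4%) were higher, against 15.3% over all homologs, and none lower. All 3 belong to photorespiration, which salvages the product of oxygen fixation by Rubisco. GOX1, a glycolate oxidase of the same pathway, did not pass, at 0.74 (adjusted p = 0.0752). AGT1, the peroxisomal serine:glyoxylate aminotransferase, had 2296, 895 and 648 CPM in terrestrial plants and 3014, 1368 and 1527 CPM in aquatic plants, and rose by 1.32 (standard error 0.21, adjusted p = 0.0123). GLYK, the glycerate kinase of the same cycle, rose by 0.89 (standard error 0.12, adjusted p = 0.00908). SHM1, the mitochondrial serine hydroxymethyltransferase, was at 0.80 (adjusted p = 0.0486) and was called in only 1 left-out fit, that without aquatic replicate 1 (adjusted p = 0.0788 to 0.188 in the others).

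Of 16 genes of chlorophyll synthesis and plastid biogenesis, 4 (25%) were higher and 2 (12.5%) lower, against 15.3% and 18.4% over all homologs. Only 2 of the higher and none of the lower calls held in every left-out fit. The higher members CAO and CRD1 and the lower member GNC were called in 0, 1 and 2 of the 6 left-out fits. SIG1, a sigma factor of the plastid RNA polymerase, had 112, 36.3 and 31.6 CPM in terrestrial plants and 102, 39.3 and 48.4 CPM in aquatic plants, and rose by 1.47 (standard error 0.17, adjusted p = 0.0068). VAR2, a protease that renews photosystem II, rose by 0.89 (standard error 0.14, adjusted p = 0.0131). FTSZ1-1, which forms the ring that divides plastids, was lower, at -0.69 (adjusted p = 0.0124), a call lost without terrestrial replicate 3 (adjusted p = 0.0542). HEMA1 and CHLH, early enzymes of chlorophyll synthesis, did not pass, at -0.26 and -0.34.

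Of 15 nitrate and phosphate genes, 6 (40%) were higher and none lower, with a median log2 change of 0.56, against 15.3% higher over all homologs, and 1 of the 6 calls held in every left-out fit. UPM1, an enzyme of the siroheme cofactor of nitrite reductase, had 239.8, 109 and 115 CPM in terrestrial plants and 215, 113 and 81.4 CPM in aquatic plants, and rose by 1.12 (standard error 0.16, adjusted p = 0.00995). NIR1, the nitrite reductase, was at 1.33 (adjusted p = 0.0163, lost without aquatic replicate 1 or 2, at 0.0509 and 0.0538), and GLU1, the ferredoxin-dependent glutamate synthase, at 1.16 (adjusted p = 0.0171, lost without terrestrial replicate 1 or 2, at 0.0527 and 0.053). SQD2, an enzyme of sulfolipid synthesis, was lost without terrestrial replicate 2 (adjusted p = 0.055), NLP7, a factor of the nitrate response, without terrestrial replicate 1, 2 or 3 (0.0574 to 0.0594), and the phosphate sensor SPX1 in all left-out fits but that without aquatic replicate 1 (0.0597 to 0.187). Of 17 sugar and starch genes, 4 (23.5%) were higher and 1 lower, and 1 of the higher calls held in every left-out fit. STP1, a monosaccharide importer of the plasma membrane, had 1063, 247 and 288 CPM in terrestrial plants and 1788, 749.9 and 781 CPM in aquatic plants, and rose by 1.62 (standard error 0.21, adjusted p = 0.00791). Both 14-day values of STP1 exceeded every 11-day value. BAM1, a beta-amylase of starch breakdown, was at 1.29 (adjusted p = 0.0318) and was lost without terrestrial replicate 3 or any aquatic replicate (adjusted p = 0.0554 to 0.0966). The sucrose carrier SUC4 and TPS1, which makes trehalose 6-phosphate, were lost in all 6 left-out fits (adjusted p = 0.057 to 0.145), and the lower member SEX4, a phosphatase of starch breakdown, without terrestrial replicate 3 (adjusted p = 0.0525).

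Among 12 genes of abscisic acid (ABA) and water deficit, 2 (16.7%) were higher and 2 (16.7%) lower, near the 15.3% and 18.4% over all homologs. Only 1 of the higher and none of the lower calls held in every left-out fit. ABA1, the zeaxanthin epoxidase at the start of ABA synthesis, had 777, 335 and 245 CPM in terrestrial plants and 1099, 509 and 596 CPM in aquatic plants, and rose by 1.21 (standard error 0.19, adjusted p = 0.0129). PYL4, an ABA receptor, and OST1, the kinase that closes stomata, did not pass, at 0.23 and 0.12. Of 12 clock and photoperiod genes, 6 were higher and none lower, at log2 changes of 0.55 to 0.83. They included the morning factors CCA1, at 0.75 (adjusted p = 0.0239), and LHY, at 0.69 (adjusted p = 0.0346), whose calls held without aquatic replicate 1 and in no other left-out fit (adjusted p = 0.0535 to 0.113). PRR7, ZTL, CDF2 and CRY1 were each lost in at least 4 left-out fits, all without terrestrial replicate 3 and all 3 aquatic replicates among them (adjusted p = 0.0519 to 0.168). The sources do not state the time of day of each harvest. Of 8 heat shock genes 2 (25%) were higher, against 15.3% over all homologs, and none lower, and 1 of these calls held in every left-out fit. HSFA1A, a master factor of the heat response, rose by 1.29 (standard error 0.16, adjusted p = 0.00762), while HSP101 and HSP70-1, chaperones, did not pass, at -0.36 and -0.80. HCT, an enzyme of lignin precursors, rose by 1.16 (standard error 0.14, adjusted p = 0.00721), the only call among 23 xylem and lignin genes tested (2 higher, 3 lower) that held in every left-out fit. VND4, IRX3/CESA7, IRX14 and FRA8 were each lost in at least 4 of them, and each of the 6 libraries was the one left out for some of these losses (adjusted p = 0.0512 to 0.151). In the list of low oxygen genes 3 of 8 were higher and 1 lower, and none of these calls survived every left-out library either (adjusted p of the lost calls 0.0741 to 0.216, in fits without each of the terrestrial replicates and aquatic replicates 2 and 3).

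Cell wall and stomatal genes were split. Of 21 cell wall genes tested 3 (14.3%) were higher and 3 (14.3%) lower, near the 15.3% and 18.4% over all homologs. None of the higher and 1 of the lower calls held in every left-out fit. XTH30, a xyloglucan endotransglucosylase that remodels walls, had 952, 71.6 and 52.1 CPM in terrestrial plants and 1019.5, 237 and 330.5 CPM in aquatic plants. Its 14-day values were above all others, and its log2 change was 3.02 (standard error 0.52, adjusted p = 0.0151), lost without terrestrial replicate 2 or 3 (adjusted p = 0.0579 and 0.0534). EXPB3, a beta-expansin, had 0.249, 17.5 and 9.50 CPM in terrestrial plants and 0.180, 9.34 and 5.31 CPM in aquatic plants, and fell by 5.55 (standard error 0.57, adjusted p = 0.00562). Of 13 genes of the stomatal lineage and the guard cell, 2 (15.4%) were higher and 4 (30.8%) lower, against 15.3% and 18.4% over all homologs. Both higher and 2 of the lower calls held in every left-out fit. The lower members ICE1 and SDD1 were called in 1 and 2 of the 6. ERECTA (ER), a receptor kinase that patterns stomata and also promotes organ growth, had 33.1, 305 and 358 CPM in terrestrial plants and 2.79, 179.6 and 171 CPM in aquatic plants, and fell by 4.35 (standard error 0.73, adjusted p = 0.0144). The receptor-like gene TMM (too many mouths), its partner in the lineage, had 0.249, 8.50 and 18.6 CPM in terrestrial plants and 0, 1.03 and 1.05 CPM in aquatic plants, and fell by 5.79 (standard error 0.69, adjusted p = 0.0071). PHOT2, the blue light receptor of stomatal opening and chloroplast movement, rose by 1.00 (standard error 0.16, adjusted p = 0.0122). The homolog of POLAR, a polarity factor of the lineage, rose by 2.33 (standard error 0.25, adjusted p = 0.00619). It had 6.84, 1.701 and 1.22 CPM in terrestrial plants and 48.0, 11.0 and 6.91 CPM in aquatic plants. This homolog is 1 transcript with only 24% identity to its match, against a median of 58%. Whether it acts as POLAR does is uncertain. The same caution holds for other named homologs of low median identity, among them JAZ1 (32%), CCA1 (35%) and LHY (38%). The early lineage factor SPCH did not pass, at -2.40 (standard error 0.73, adjusted p = 0.0602). Of 12 root markers listed, taken to look for another organ in the samples, 4 were tested, 3 lower and 1 higher. Only 1 of the lower and none of the higher calls held in every left-out fit. Summed levels of the list were 90.4 and 103 CPM at 14 days and up to 152 CPM at 11 days. SCR, which is also active in shoots, fell by 1.51 (standard error 0.20, adjusted p = 0.00826).

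Some homologs shifted differently in the 2 conditions. In a fit with the interaction of harvest and condition, 360 of 8266 homologs (4.36%) passed, 48 with a more positive shift in aquatic plants (0.581%) and 312 with a more negative one (3.77%). This test sets single 14-day libraries against each other, 1 per condition, and so rests on aquatic replicate 1. Its spread is measured only between replicates 2 and 3 of each condition. The standard errors and p-values of this test therefore do not cover variation between 14-day libraries. Every alternative fit of this test uses the same single 14-day libraries, so none of them checks that variation. Wax and cutin genes were prominent among them, 13 of 16 tested, all with the more negative shift in aquatic plants, and 13 again passed with DESeq2, 10 without terrestrial replicate 2 and 9 without terrestrial replicate 3. The list had a median log2 ratio of 0.30 in terrestrial and -3.29 in aquatic plants. Its summed level was 6709, 3210 and 3293 CPM in terrestrial plants and 901, 2324 and 2505 CPM in aquatic plants. For the common shift across conditions, only SHN1, an activator of wax genes, was called in this list, at -2.19 (adjusted p = 0.0423), and in none of the fits that left out a library and could test it (adjusted p = 0.0746 to 0.33). Without aquatic replicate 1, 5 of the genes were called higher and none lower.

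CER4, the reductase that makes the primary alcohols of wax, had 2383, 624 and 466 CPM in terrestrial plants and 0.539, 132 and 120.1 CPM in aquatic plants. CER3, which acts in wax alkane formation, had 631, 140.4 and 150.1 CPM in terrestrial plants and 5.93, 114 and 105 CPM in aquatic plants. CYP86A2, a hydroxylase of cutin monomers, had 179, 147 and 156 CPM in terrestrial plants and 0.988, 66.1 and 68.9 CPM in aquatic plants. The wax genes CER3 and CER4 were highest at 14 days in terrestrial plants and lowest at 14 days in aquatic plants, while the cutin gene CYP86A2 changed little in terrestrial plants and was near 0 at 14 days in aquatic plants. The aquatic shift was more negative than the terrestrial one by -9.97 for CER4 (standard error 0.46, adjusted p = 0.00954), by -6.32 for CER3 (standard error 0.24, adjusted p = 0.00954) and by -6.32 for CYP86A2 (standard error 0.26, adjusted p = 0.00954), each on the log2 scale. KCS1 and CER6, which elongate fatty acids, LACS1 and LACS2, which activate them, and GPAT6, which builds cutin, also passed, with differences of -3.87 to -5.95. Of these, GPAT6 was lost without terrestrial replicate 2 or 3 (adjusted p = 0.0803 and 0.0761) and CER6 without terrestrial replicate 3 (adjusted p = 0.0505). MYB96, a factor that activates wax genes under drought, passed as well, at -3.08. ABCG11, an exporter of cuticle lipids, and GPAT8 did not pass (adjusted p = 0.327 and 0.29), and ABCG11 had 561 CPM at 14 days in aquatic plants against 395 and 380.1 CPM at 11 days.

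**Figure D5:**
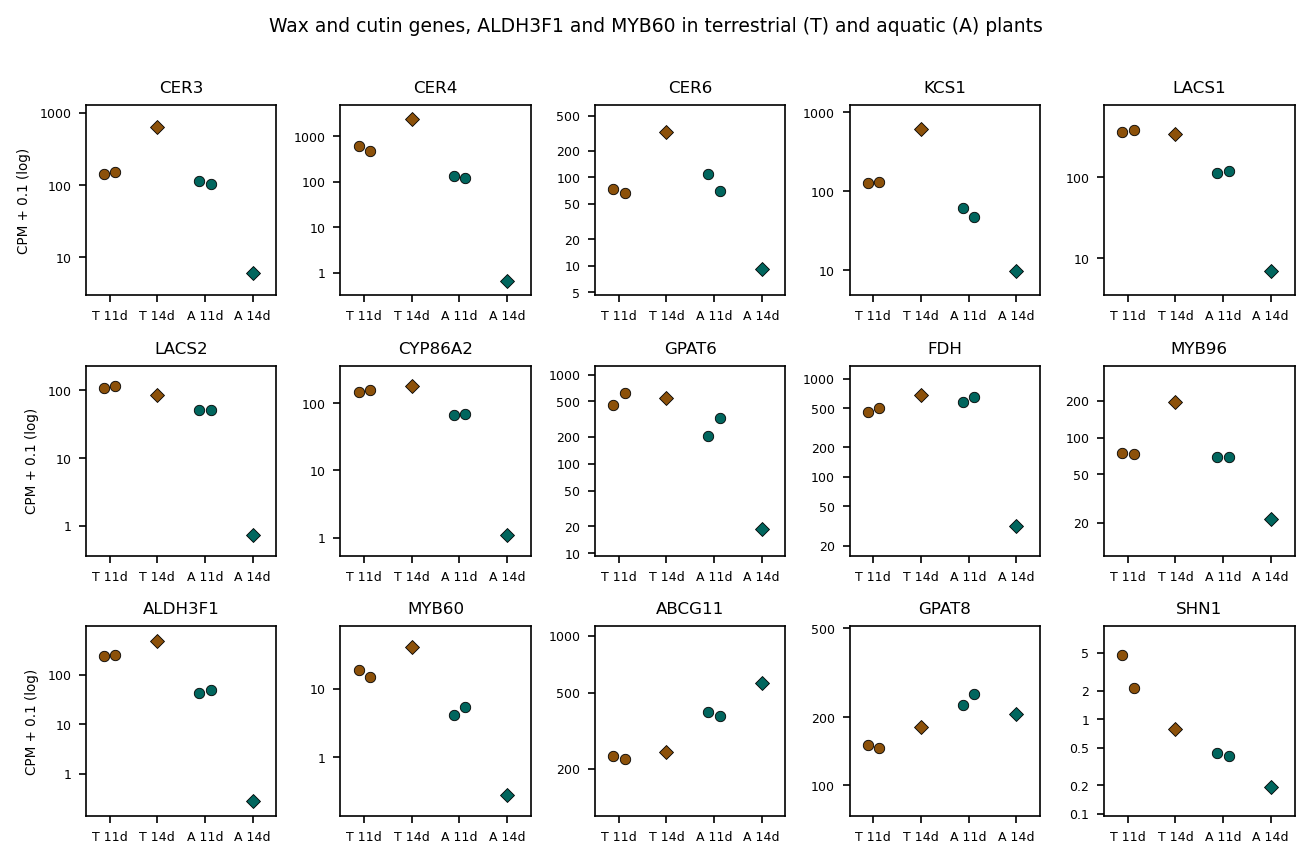
CPM (log scale, 0.1 added, with its own range in each panel) of 15 homologs, with the 11-day pair as circles and the 14-day library as a diamond, first for terrestrial and then for aquatic plants. CER4 goes from 466 and 624 CPM up to 2383 CPM in terrestrial plants and from 120.1 and 132 CPM down to 0.539 CPM in aquatic plants, while ABCG11 and GPAT8 differ less between harvests.

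Outside the cuticle, ALDH3F1, an aldehyde dehydrogenase, had 482, 238 and 253 CPM in terrestrial plants and 0.180, 42.2 and 49.0 CPM in aquatic plants, and its shifts differed by -8.89 (standard error 0.37, adjusted p = 0.00954). The guard cell factor MYB60, with 41.2, 18.8 and 14.6 CPM in terrestrial plants and 0.180, 4.12 and 5.31 CPM in aquatic plants, differed by -5.95 (adjusted p = 0.015), and the drought-induced gene RD22 by -5.11 (adjusted p = 0.0185). Both calls were lost without terrestrial replicate 3 (adjusted p = 0.0519 and 0.0505). Among cell wall genes, EXPA11, an expansin, XTH5, XTH8, PME3, a pectin methylesterase, and FLA2, an arabinogalactan protein, had the more negative shift in aquatic plants, by -2.81 to -7.33 (adjusted p = 0.0132 to 0.0406). PME3 and XTH8 held in the 4 fits without an 11-day library. XTH5 and FLA2 were lost without terrestrial replicate 2 (adjusted p = 0.102 and 0.0806) or terrestrial replicate 3 (0.115 and 0.0702), and EXPA11 without terrestrial replicate 3 (0.0508). The opposite pattern was found for P5CR, the last enzyme of proline synthesis, which had 17.5, 32.5 and 31.0 CPM in terrestrial plants and 149, 29.8 and 25.9 CPM in aquatic plants. Its 14-day value was the lowest of the terrestrial and the highest of the aquatic libraries, a difference of 3.28 (adjusted p = 0.00995). PPCK1, a kinase of phosphoenolpyruvate carboxylase, differed by 3.44 and AT3G19000, an oxygenase, by 2.47 (adjusted p = 0.0122 and 0.0113). Both lost the call without terrestrial replicate 3 (adjusted p = 0.0508 for each).

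The calls for harvest were also set beside those for growth condition. Both come from 1 fit and share its estimate of spread for each homolog. Homologs of low spread therefore tend to be called for both, and the overlap is no separate evidence of a link. In the same fit 1357 homologs (16.4%) were called for condition, and 720 of the 2776 homologs that moved the same way were among them, 397 higher and 323 lower at 14 days. The call for a shared shift favours homologs that agree, so the 2776 were chosen against a difference between conditions. The interaction test called 360 of all 8266 homologs (4.36%), and 50 of the 2776. ER was 1 of these, with a difference of -2.65 on the log2 scale (adjusted p = 0.0177), a call lost without terrestrial replicate 2 or 3 (adjusted p = 0.0524 and 0.0519).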

How the data were processed

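RNA of 6 libraries was sequenced by the authors by Illumina paired-end reads, assembled de novo with Trinity and processed with TopHat and Cufflinks, whose versions the sources do not state. Expected counts, as the authors deposited them, are estimates of how many fragments each assembled transcript gave, without normalization, and all were whole numbers. FPKM, as deposited, divides by transcript length and sequenced fragments and precedes the quantile normalization of the methods. The deposited annotation gives the percent of identical residues of the best protein match. Its 6 columns of values per library were not used here. Per the labels, replicate 1 is the 14-day harvest.

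Expected counts were summed per *Arabidopsis* identifier and tested with edgeR 4.0.16 in R 4.3.3 (TMM scaling, quasi-likelihood test, terms for harvest and condition, minimum count of 10 by filterByExpr grouped by harvest). An added interaction term tested whether the harvest shift differed between conditions. Standard errors are the absolute log2 change over the square root of F, approximate where counts are few. Ratios per condition had 0.5 CPM added. Bounds used 3 counts over the 14-day libraries, and 95% counting intervals cover counting error only. The total count was 25345718 to 33978729 per library. A permutation of harvest within condition has too few arrangements to reach p under 0.05 for a single value, and none was run. The code was tested on simulated data.

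Genes were named by rule: the 15 largest increases and 15 largest decreases that were called, moved the same way and reached 50 counts in every library of the harvest where they were higher, the 4 smallest adjusted p of each of 27 lists, and the 3 smallest p in each direction of the interaction. Other list members were named after their values were seen. The members and lists were chosen with earlier results of these data known. Alternatives were DESeq2 1.42.0, limma 3.58.1 on quantile-normalized log2 FPKM, other scalings, filters and terms, the most abundant transcript per homolog, each library left out, and a replicate block. Python 3.11.15, pandas 2.3.3 and matplotlib 3.10.9 made the tables and plots.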

Additional observations from a re-analysis of the deposited data

Results flagged for a closer look

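The harvest shift differed between terrestrial and aquatic plants for 48 homologs with a more positive and 312 with a more negative shift in aquatic plants, by edgeR's interaction test. Named among them were P5CR (difference of shifts 3.28 on the log2 scale), AT3G19000 (2.47) and PPCK1 (3.44), and in the other direction CER3 (-6.32), CYP86A2 (-6.32) and ALDH3F1 (-8.89). Each of these differences rests on aquatic replicate 1 and terrestrial replicate 1, the 2 single libraries at 14 days. The interaction test does not measure the variation between libraries at 14 days.

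Outside the homologs, 3 transcripts without annotation held 36.2% of the counts of aquatic replicate 1, and 1641 transcripts with a fungal match had a count in aquatic replicate 2.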

How the results depend on the processing

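Of the 2788 called homologs, DESeq2 called 99.8% in the same direction, upper-quartile scaling 89.6% and scaling over all assembled transcripts 83.6%, with 815 higher homologs in the last (807 the same way in both conditions). Without the condition term 236 higher and 517 lower homologs were called, the same numbers counted the same way in both conditions, and 27.0% of the calls remained. Leaving out each of the 6 libraries gave 473 to 1133 higher and 620 to 1730 lower homologs. The same-way counts and the interaction need a 14-day library in each condition, so there only the 4 fits without an 11-day library were run. They gave 472 to 778 and 620 to 1086 the same way in both conditions, and 7 to 189 more positive and 103 to 540 more negative shifts in aquatic plants, and DESeq2 gave 160 and 568. Fits that drop a 14-day library leave that harvest with 1 library, assumed to vary like the others. The cause of these changes was not tested.

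The replicate numbers were not taken as pairs, since the difference of replicates 2 and 3 correlated by -0.116 over homologs between the conditions. With the replicate number as a block, 803 higher and 974 lower homologs were called (800 and 971 the same way), and with the pairing crossed, an alternative chosen after seeing the data, 668 and 897 (664 and 894).

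Of the 138 named homologs, the following changed direction in the common harvest shift, and none of these had passed the test of that shift. P5CR, AT3G19000, PPCK1, CER3, CYP86A2 and ALDH3F1 were named for the interaction test, which they passed, as their shifts differed between conditions. CLV1 was at 0.063 and 0.11 by limma on FPKM with pseudocounts of 1 and 0.1, and CER3 at -0.55 and -0.74. SPL2 (AT5G43270) was at 0.0052 with DESeq2, 0.16 without the condition term, 0.28 and 0.33 by limma and 0.0045 with the crossed block. ABCG11 was at -2.97 with the most abundant transcript alone. PPCK1 and ALDH3F1 were at 0.23 and 0.73 without the condition term. Leaving out 1 library gave -1.17 to 0.072 for BB, -1.49 to 3.02 for ERF1, -1.20 to 0.92 for SPL2, -0.80 to 2.42 for P5CR, -1.07 to 1.34 for AT3G19000, -2.23 to 1.14 for PPCK1, -4.21 to 2.17 for CER3, -6.08 to 0.29 for CYP86A2 and -7.92 to 1.03 for ALDH3F1. With 1 library per condition at 14 days, small shifts are the least secure.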

Other observations

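Gene Ontology terms of the deposited annotation, described here after their values were seen and not tested as groups, gave the same homologs wider frames. Among 90 tested homologs annotated with histone H3-K9 methylation, 64 were lower and 3 higher at 14 days (median log2 change -2.20, against -0.02 over all homologs), and among 108 annotated with cytokinesis by cell plate formation 62 were lower and 5 higher (median -1.46). Among 95 structural constituents of the ribosome, 76 were lower and 1 higher (median -1.19).

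Other terms held more higher than lower homologs. Chlorophyll catabolic process held 36 tested homologs, 20 higher and 2 lower (median 0.75). The unfolded protein response of the endoplasmic reticulum held 65, 28 higher and 5 lower (median 0.54). Protein import into the peroxisome matrix held 56, 22 higher and 4 lower (median 0.42), and potassium ion transport 24, 9 higher and none lower (median 0.57). Response to chitin held 119, 33 higher and 6 lower (median 0.58). Transcripts with a fungal match were most numerous in aquatic replicate 2, an 11-day library, and their part was not tested. The backgrounds over all homologs were 15.3% higher and 18.4% lower.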
